A study of Papilio machaon with 10 samples.

Results

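Co-expressed runs of neighbouring genes were examined in whole bodies of the swallowtail butterfly Papilio machaon through development. Genes whose RPKM averaged 1 or more over all libraries were put in order of the number in their locus tag, the serial name the annotation gives a gene. A run was 4 or more genes with consecutive numbers in which every neighbouring pair had a Pearson r of at least 0.9 of log2(RPKM + 1) over the 10 libraries. The members were thus chosen by their expression values, and the correlations between neighbours inside a run are a description and no finding. There were 33 such runs, which held 165 genes, 1.18% of the 13984 genes that passed the filter and of 15285 genes in all. RNA was sequenced from egg, the 5 larval instars L1 to L5, and pupae and adults of either sex, with 1 library of each. Eggs and the L1 and L2 larvae were pooled, every other library came from 1 individual, and eggs and larvae carry no sex in the labels. Stage and sex are the only differences the labels give between the libraries, and genotype, strain and treatment are not given in the sources used here. A level that is high in 1 library can therefore belong to the stage, to the individual or to the preparation, which cannot be told apart. In whole bodies, fewer cells of a type and less RNA per cell cannot be told apart either.

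In insects, genes of one family often lie side by side because a copy arose next to its original, and such neighbours can keep a shared time and place of activity. The clustered chorion genes of the silkworm, which make the eggshell, and the tandem genes for cuticle proteins of many insects are examples. Neighbouring genes can also follow each other because sequencing reads fit more than one near-identical copy, or because one transcript was annotated as several genes. A caterpillar sheds its cuticle between instars, and a whole larva, pupa or adult is a mixture of many tissues.

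The table names genes by tags alone, and 0 tags matched the reference gene table, so the runs are called by their first tag and no gene name, function or sequence is given. The tags order the genes, but distances and chromosomes were not analysed here. RPKM is the number of reads on a gene per kilobase of its length, scaled by the reads of the library. The reads behind a value were recovered from the steps in which RPKM moves, and came to between 23274472 (L5) and 35989828 (L2) reads on genes per library. In every library they exceeded the read total that scaled RPKM, recovered in the same way, which lay between 17943036 (L5) and 26492878 (L2). What the excess comes from was not tested, and the counting errors below rest on these recovered reads. A count of 3 reads on a gene of 1 kb was worth between 0.113 and 0.167 RPKM, and values below that are close to no reads at all.

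Among all 12805 neighbouring pairs of tags, 1041 had an r of at least 0.9, which is 8.13%. Of these, 132 pairs lay within the runs and 909 in shorter stretches, in which 695 pairs stood alone and 107 groups held 3 genes. The runs were mostly short. There were 16 runs of 4 genes, 9 of 5 and 5 of 6, and one each of 7, 8 and 11. The 3 pairs of lowest r within the runs, RR48_15485 with RR48_15486, RR48_09639 with RR48_09640 and RR48_02149 with RR48_02150, had r of 0.90, 0.90 and 0.91. Just outside the threshold were RR48_10840 with RR48_10841, RR48_13264 with RR48_13265 and RR48_08052 with RR48_08053, each with r of 0.90 when rounded and below 0.9. At 59 of the 66 ends of runs the next gene had r below 0.9 with the last member, which the rule sets. The median there was 0.30, near the 0.29 of all neighbouring pairs, and only 6 values lay between 0.8 and 0.9. At the other 7 ends the next gene had a mean RPKM below 1.

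The order of the rows in the table, which the rule did not use, was compared with the order of the tags. The table is not in the order of the tags, yet the members of all 33 runs also stood on consecutive rows. This was not particular to the runs. Outside them, 907 of the 909 neighbouring pairs at an r of 0.9 or more also stood on consecutive rows (99.8%). Of all neighbouring pairs outside runs, 92.0% did. Among neighbouring tags on consecutive rows, 1039 of 11793 pairs had an r of at least 0.9 (8.81%). Among neighbouring tags on separate rows it was 2 of 1012 pairs (0.198%). Rows that followed each other without consecutive numbers reached it in 5 of 1173 pairs (0.426%). Most of the separated pairs had numbers up to 2000, and within that range the shares were 11.0% of 755 pairs on consecutive rows and 0.229% of 874 pairs on separate rows. High correlation was thus found where number and row agreed, and hardly where only one of them did. What a break between rows stands for is not stated in the sources used here. Over larger distances between tags the share was 2.70% at a distance of 2 and 0.42% at 10.

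Genes that are not neighbours within their run were not compared by the rule. Of these 233 pairs, 169 (72.5%) still had an r of at least 0.9, with a median of 0.95. In 13 of the 33 runs every pair did. These counts include 10 pairs of the run from RR48_00983 and 21 of that from RR48_01012, all at an r of 0.99 or more. Both runs are given below as possible shared reads. The lowest value, 0.67, was in the longest run, from RR48_13401 to RR48_13411. These pairs are tied to the rule through the neighbours between them, so the share is a description.

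The runs fell unevenly on the libraries. By the mean of log2(RPKM + 1) over the members, 7 runs with 33 genes were highest in L1, 3 runs with 23 genes in L2, 3 with 18 genes in L3, and 1 each in L4 and L5. Male pupa had 4 runs with 18 genes, female pupa 2 with 8, male adult 8 with 38 and female adult 4 with 18, while 0 runs were highest in the egg. Among the L3 runs are those from RR48_00983, with 6 genes, and RR48_01012, with 8, given below as possible shared reads. Single members differed from all genes that passed the filter in some libraries and not in others. L1 held the highest value of 16.4% of members and 4.96% of all genes, and female pupa that of 5.45% of members and 26.1% of all genes. The shares were nearly equal in male pupa (13.9% and 14.2%) and in female adult (10.9% and 11.3%). They come from the values that the rule used and are a description. The run's library was also the highest one for 139 of the 165 members, and in 18 runs for every member. The runs from RR48_00983 and RR48_01012 are among these 18. In 10 runs the second library lay within 0.5 on the log2 scale, so that the order of those libraries is a matter of small differences in single libraries. Taking the mean of RPKM in place of its logarithm moved the run from RR48_07266, chosen here for that change, to male pupa and the run from RR48_10340 to egg. Taking RPKM relative to the highest value of each member moved the run from RR48_08904, the only one highest in L4, to L3, which left 0 runs there.

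**Figure D1:**
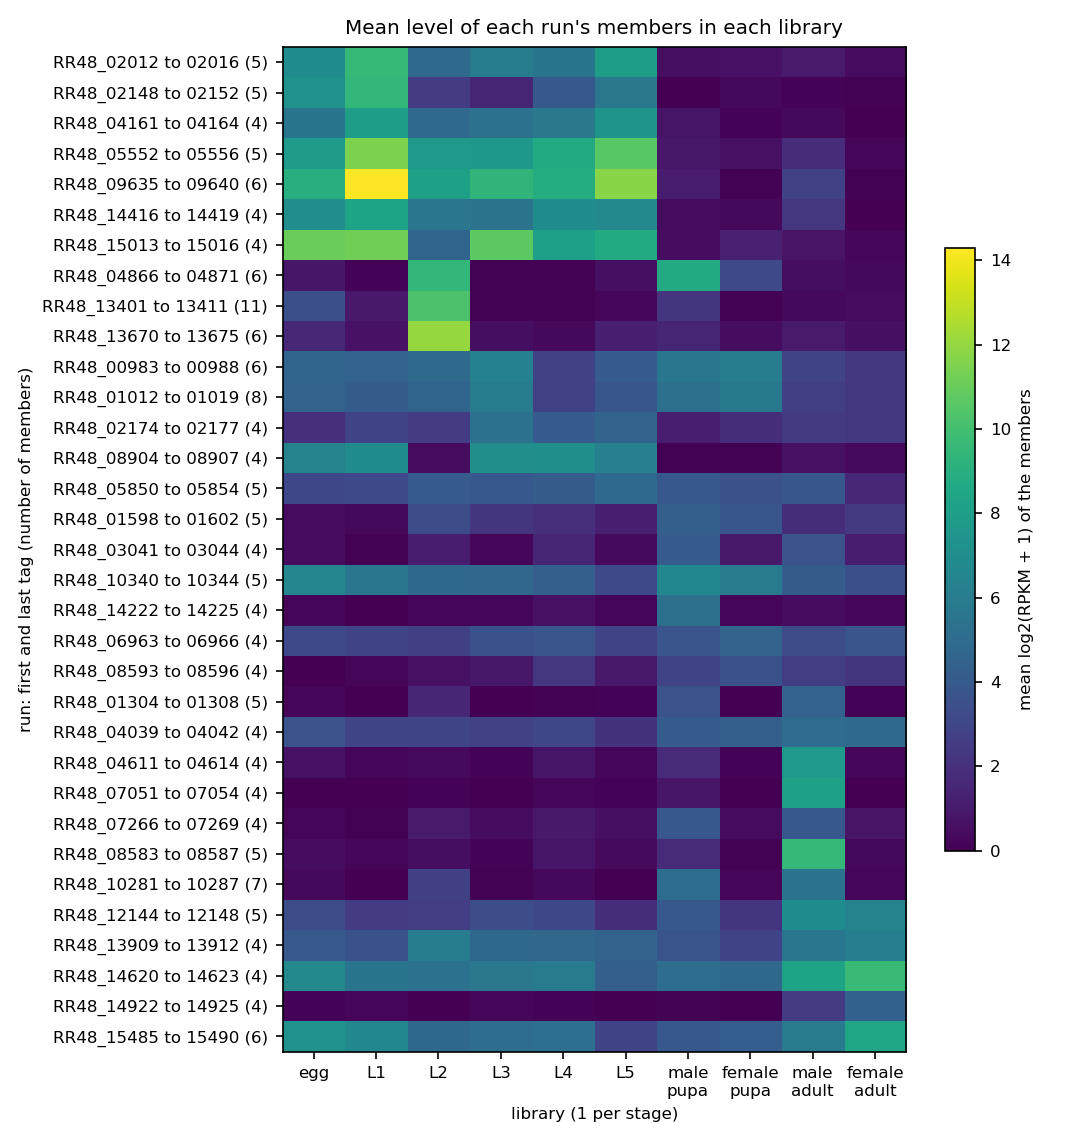
Mean of log2(RPKM + 1) over the members (colour) of each of the 33 runs (rows, with the number of members in brackets) in each of the 10 libraries (columns), with runs grouped by the library in which they were highest. The 7 runs at the top were high in L1 and low in pupae and adults, the 3 runs below them were high in L2, and a block of runs near the bottom was high in male adult.

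The 7 runs highest in L1 were the most abundant. Together they took 14.8% of the summed RPKM of the L1 library, 4.51% of that of L5 and 2.50% of that of the egg, but 0.00953% or less in each pupa and adult. The run from RR48_09635 to RR48_09640 alone took 8.84% in L1. Its 6 members ranged from 5789 to 63498 RPKM there and from 250 to 7766 RPKM in L5. In the female pupa they ranged from 0 to 0.165 RPKM. The strongest member, RR48_09636, had 4660 RPKM in egg, 63498, 590, 660, 529 and 5472 across L1 to L5, 2.40 in male pupa, 0.0676 in female pupa, 34.0 in male adult and 0 in female adult. The L1 value of this gene stood above every other library by more than 10-fold. The egg separated members of this run, since RR48_09639 had 18967 RPKM in L1 and 13.3 in egg, although both genes were far lower in L2 to L4 than in L1 and high again in L5.

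The run from RR48_05552 to RR48_05556 had the same outline. Its strongest member, RR48_05552, had 3941 RPKM in egg, 26367, 2981, 4506, 9102 and 11846 across L1 to L5. The same gene had 2.33 RPKM in male pupa, 1.86 in female pupa, 4.99 in male adult and 0.25 in female adult. All 5 larval values lay above every pupal and adult value, and the egg lay among the larvae. The run from RR48_15013 to RR48_15016 differed from these in L2. RR48_15016 had 3278 RPKM in egg, 6038, 2.32, 3221, 752 and 322 across L1 to L5, so that L2 stood near the pupae and adults, at 0.597 RPKM or less, and far from its neighbouring instars. RR48_15013 was the strongest gene of that run, with 39232 RPKM in L1 and 440.3 in L2.

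The levels of members could lie far apart within such a run. In the run from RR48_02012 to RR48_02016, the weakest member had a mean of 12.2 RPKM and the strongest, RR48_02016, 932 RPKM, and L1 and L5 were nearly level in RR48_02016, at 3708 and 3645 RPKM. In the run from RR48_04161 to RR48_04164, member means differed by 216-fold, between 2.38 RPKM in RR48_04164 and 515 RPKM in RR48_04162, and only 1 of the 4 members was highest in L1 itself. The female adult was at 0 in all 4 of its members. The profiles of these runs were close to each other, although they lay far apart in tag number. The means of the run from RR48_02012 and the run from RR48_09635 had an r of 0.99 over the 10 libraries, and 6 of the 32 other runs reached 0.9 with it. Both of these runs were higher in egg and larvae than in pupae and adults, and both were highest in L1 and next in L5. How much of such correlations rests on either contrast was not tested.

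The 3 runs highest in L2 were almost silent in the other instars. Their 23 genes took 4.92% of the summed RPKM of L2 but 0.00129% or less in each other instar. The run from RR48_13401 to RR48_13411 was the longest of all, with 11 genes. Its members ranged from 580 to 3762 RPKM in L2, from 0 to 4.31 in L1 and from 0 to 0.189 in L3. The egg split the run into parts. The first 4 members had 203, 306, 176 and 56.1 RPKM in egg, while the other 7 had 6.06 RPKM or less. RR48_13410 and RR48_13411, at the other end, had 26.7 and 15.8 RPKM in male pupa, where the first 4 had 2.25 or less.

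The run from RR48_13670 to RR48_13675 held the strongest L2 genes. RR48_13675 had 13.5 RPKM in egg, 4.71, 25169, 3.88, 1.81 and 6.32 across L1 to L5, 8.02 in male pupa, 0.387 in female pupa, 5.74 in male adult and 1.12 in female adult. RR48_13671, the weakest member, had 891 RPKM in L2 and at most 0.604 in any other library. Both genes rest on many reads in L2, 200038 and 28324. The run from RR48_04866 to RR48_04871 was high in L2 and in male pupa. RR48_04871 had 2427 RPKM in L2, 1421 in male pupa, 44.7 in female pupa and 1.42 or less in each of the other 7 libraries. The female pupa ranged over the 6 members of this run from 0 RPKM in RR48_04868 to 178 RPKM in RR48_04866, while the male pupa had between 153 and 1421 RPKM. The coding lengths of these 6 genes were close together, from 699 to 759 bp, whereas their mean RPKM differed by 10.8-fold.

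**Figure D2:**
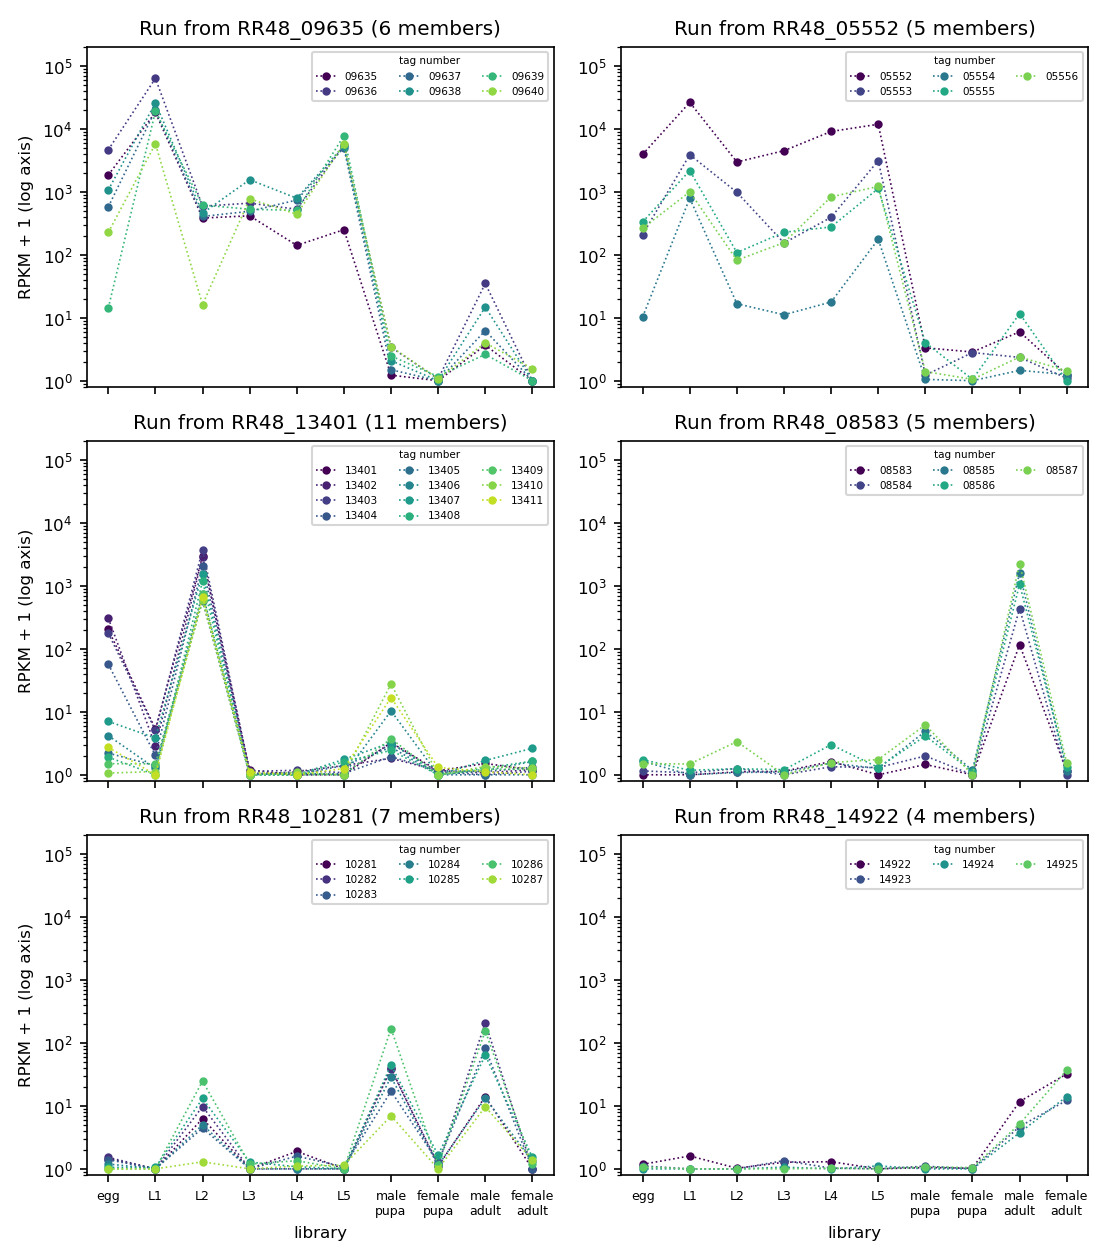
RPKM + 1 on a log axis (vertical) for every member of 6 runs in the 10 libraries (horizontal), 1 point per gene and library, with dotted lines that only join the points of a gene. The members of the run from RR48_09635 were highest in L1 (5789 to 63498 RPKM), those of the run from RR48_13401 in L2 (580 to 3762 RPKM), those of the run from RR48_08583 in male adult (116 to 2261 RPKM), and those of the run from RR48_14922 in female adult (11.3 to 36.2 RPKM).

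The 8 runs highest in male adult took 1.76% of the summed RPKM of that library and 0.0573% or less of any other. The run from RR48_04611 alone took 1.07%, nearly all of it from RR48_04613, a gene of 117 bp. Members of all runs together took 1.98% of male adult by RPKM but 0.873% by reads on genes. In the run from RR48_08583 to RR48_08587, the 5 members had between 116 and 2261 RPKM in male adult, between 0.458 and 5.21 in male pupa, and at most 2.36 in any other library. RR48_08587 had 2261 RPKM in male adult and 0.538 in female adult. It had 5.21 RPKM in male pupa and 0 in female pupa. The run from RR48_04611 to RR48_04614 had the widest spread of member levels of all runs, 589-fold between RR48_04611 and RR48_04613. RR48_04613, with a coding length of 117 bp, had 13587 RPKM in male adult from 31403 reads, 31.6 in male pupa, 3.56 or less in egg and larvae, and 0 in both female libraries. The profile of the run from RR48_08583 had an r of 1.00 when rounded with that of the run from RR48_04611, and likewise with that of the run from RR48_07051, named after its values were seen. Both values rest on the 1 library in which these runs were high.

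Other runs were high in the male pupa as well as in the male adult. In the run from RR48_10281 to RR48_10287, the 7 members had between 8.70 and 208 RPKM in male adult, against 0 to 0.528 in female adult. They had between 5.96 and 168 RPKM in male pupa, against 0 to 0.657 in female pupa. RR48_10282 was higher in the adult male (208 RPKM) than in the male pupa (37.4 RPKM), and RR48_10281, next to it, lower (13.1 and 38.9 RPKM). All 7 members were also detected in L2, at 0.295 to 23.7 RPKM from 3 to 322 reads a gene, while L1, L3, L4 and L5 held 0.896 RPKM or less. The lowest of the L2 values, 0.295 RPKM in RR48_10287, lay within that range. The run from RR48_01304 to RR48_01308 had the same outline at lower levels. Its members had 15.4 to 30.6 RPKM in male adult, against 0 to 0.341 in female adult, and 8.32 to 19.1 RPKM in male pupa, against 0 in female pupa. In L2 they had 0.713 to 2.52 RPKM, from 8 to 44 reads a gene, and all 5 were at 0 in L1 and in L3. The labels give no sex for the L2 pool, and what its signal in these runs comes from was not tested.

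Over all members, 22 of 165 (13.3%) were at least 4-fold higher in males than in females in pupa and adult alike, on the scale of RPKM + 1. Of all genes that passed the filter, 2.35% were. In the opposite direction it was 0 of 165 members, and 0.522% of all genes. The 22 genes lay in 6 runs. They were all 7 members of the run from RR48_10281, all 5 of that from RR48_01304, 2 from that of RR48_08583 and 1 from that of RR48_04611, and, in runs named here for this count alone, all 4 of that from RR48_07266 and 3 of 4 from RR48_03041. With 1 library per sex and stage there is no replicate check, and the rule used the same 4 libraries. With a pseudocount of 0.1 in place of 1 the count was 39 of the members and 709 of all genes, against 22 and 329 with a pseudocount of 1. In the female direction it was 0 of the members and 155 of all genes there. A count of genes overstates how often this arose, since genes of a run were chosen to follow each other.

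**Figure D3:**
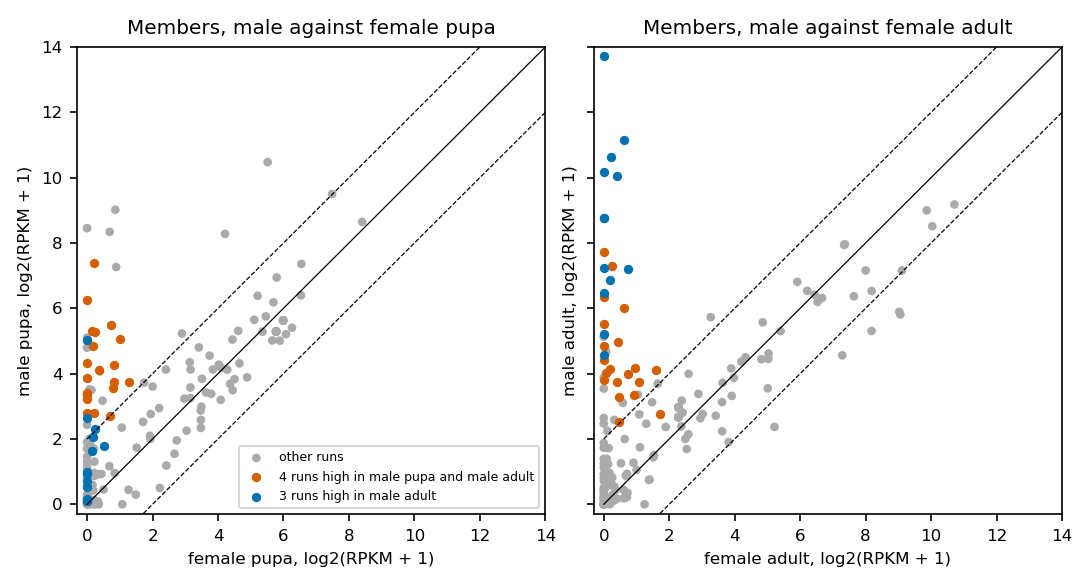
log2(RPKM + 1) of the 165 members in the male (vertical) and female (horizontal) pupa, left, and adult, right, with 1 point per gene, a solid line where both are equal and dashed lines 4-fold above and below it. Points of 4 runs, from RR48_01304, RR48_03041, RR48_07266 and RR48_10281, lie above the upper dashed line in both panels with 1 exception, and those of 3 runs, from RR48_04611, RR48_07051 and RR48_08583, mainly in adults.

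The 4 runs highest in female adult were of unlike kinds. The run from RR48_14922 to RR48_14925 reached 1 RPKM in these libraries only in the adults. RR48_14925 had 4.17 RPKM in male adult and 36.2 in female adult, and at most 0.0743 in any other library. The 4 members had similar coding lengths, from 1449 to 1542 bp, and ranged from 2.75 to 10.7 RPKM in male adult and from 11.3 to 36.2 in female adult. The run from RR48_14620 to RR48_14623 was present throughout. RR48_14621 had 251 RPKM in egg, between 52.6 and 116 in larvae, 83.3 in male pupa, 91.7 in female pupa, 579 in male adult and 1677 in female adult. In the run from RR48_15485 to RR48_15490 the egg came second, and in RR48_15486 first. RR48_15490 had 359.6 RPKM in egg, 240.1 in L1, 9.62 in L5, 142 in male adult and 552 in female adult, and the values of L2 to L4 lay between 62.8 and 70.2.

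Of the remaining runs named by the rule, some changed little. The run from RR48_06963 to RR48_06966 was highest in female pupa and stood at 2.00 RPKM or more for all 4 members in every library. RR48_06963 had between 14.6 RPKM, in L2, and 49.4 RPKM, in female pupa. The run from RR48_05850 to RR48_05854 was marked most by where it was low. RR48_05850 had 118 RPKM in L5, between 32.2 and 67.1 in egg, the other larvae, both pupae and male adult, and 8.63 in female adult. The run from RR48_10340 to RR48_10344 was highest in male pupa and nearly so in egg. RR48_10344 had 838 RPKM in egg, 399 in male pupa and 337 in female pupa, and 208 or less elsewhere. In the run from RR48_08904 to RR48_08907, L2 was again apart. RR48_08905 had 30.0 RPKM in egg, 219, 0.653, 243, 185 and 56.2 across L1 to L5. All 4 members of that run had 0.653 RPKM or less in L2 and 52.4 or more in each other instar.

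Shared reads were looked for in the ratio between neighbouring members. Reads that fit several copies equally well, or one transcript split into several gene models, would keep that ratio constant from library to library. The SD of the log2 ratio of RPKM could be taken for 99 of the 132 pairs, those with at least 3 libraries in which both genes had 1 RPKM or more. Its median was 0.65 within the runs and 1.05 over all neighbours, while counting error alone gives a median of 0.19 for the pairs within runs. An SD below 0.25 was found in 18 of the 99 pairs (18.2%) and in 1.35% of all neighbours. Neighbouring pairs at an r of 0.9 or more outside runs had a median SD of 0.42, and 117 of 836 lay below 0.25. Steady ratios were thus not particular to the runs. Most of the 18 lay in 2 runs.

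The runs from RR48_00983 to RR48_00988 and from RR48_01012 to RR48_01019 held genes with almost the same values. All 14 genes had a coding length of 312 bp, and 9 of their neighbouring pairs had identical values in every library. RR48_00985 to RR48_00988 were each listed at 22.8 RPKM in egg, 20.9, 29.0, 72.7, 5.87 and 16.6 across L1 to L5, 48.6 in male pupa, 62.6 in female pupa, 6.81 in male adult and 3.86 in female adult. RR48_00984 differed from them only in egg and male pupa. RR48_01013 to RR48_01019 shared another row of values, with 63.8 RPKM in L3. It equalled the row of RR48_00985 to RR48_00988 in L4 and in female adult, at 5.87 and 3.86 RPKM. The means of the 2 runs had an r of 0.996 over the 10 libraries. The 6 and 8 genes of these runs held 3 and 2 distinct rows of values. The SD of the ratio was below 0.01 in 10 pairs, which is far below counting error, and these were all such pairs among the 12031 neighbours of the table for which it could be taken. These genes are therefore given as possible shared reads and not as 14 separate measurements. Which reads they shared was not tested. The first gene of each run, RR48_00983 and RR48_01012, stood apart from the other members, with 91.1 and 73.6 RPKM in L3, at an SD of 0.21 that lay close to counting error.

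In the other 31 runs, where a ratio could be taken, it mostly moved more than counting error gives. The median SD was 0.72, beside a median counting SD of 0.18. An SD below 0.25 was found in 6 of 87 pairs (6.90%). This was a smaller share than in pairs at an r of 0.9 or more outside runs. In 22 of the 87 pairs the SD lay within 2 counting SDs. Over all neighbours it was 872 of 12031 pairs, and 334 of 836 in pairs at an r of 0.9 or more outside runs. The run from RR48_06963 had the steadiest ratios of these 31 runs, with a median SD of 0.25 beside a counting SD of 0.11. RR48_10282 with RR48_10283 had 0.08, below its counting SD of 0.15, but from only 3 libraries. In the run from RR48_01304 the measured pairs had SDs between 0.30 and 0.44, from 3 libraries each and within 2 counting SDs. The runs from RR48_04039 and RR48_08593, named after their values were seen, also had every pair within 2 counting SDs. Their SDs were 0.26 to 0.43 from 10 libraries and 0.24 to 0.80 from 5 to 7 libraries. Members of these runs and of that from RR48_01304 are given as possible shared reads or a split transcript, which was not tested. The runs from RR48_04161, RR48_15013 and RR48_04866 had the least steady ratios, with median SDs of 2.03, 1.96 and 1.55. Their members followed each other in which libraries were high, and differed several-fold in how high. No ratio could be taken in the runs from RR48_08583, RR48_04611, RR48_14922, RR48_07051 and RR48_14222. Neighbouring members there reached 1 RPKM together in fewer than 3 libraries, so shared reads were not tested there by this measure. In these runs the levels of the members differed by 19.3-fold, 589-fold, 2.79-fold, 13.1-fold and 41.8-fold, in the same order.

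**Figure D4:**
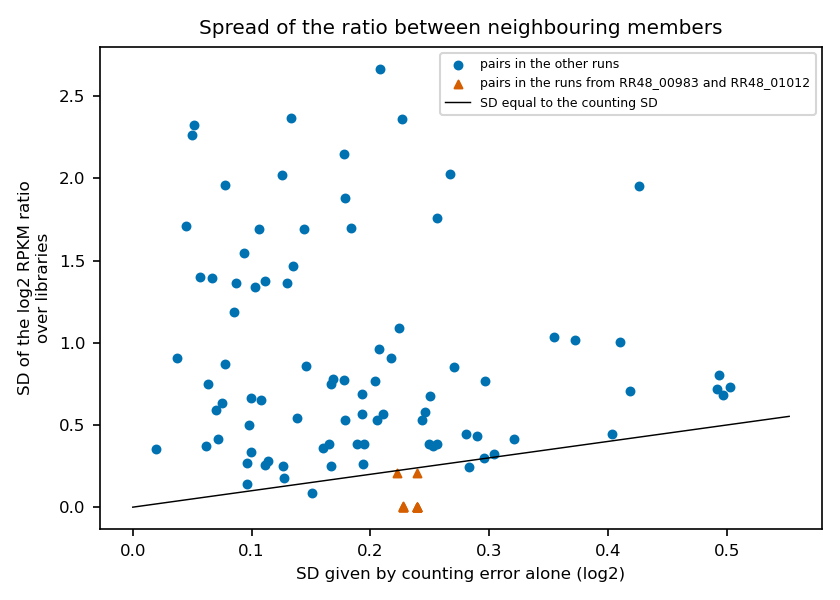
SD over libraries of the log2 ratio of RPKM between neighbouring members (vertical) against the SD that counting error alone gives (horizontal), for the 99 pairs within runs that could be measured, with a line where both are equal. The pairs of the runs from RR48_00983 and RR48_01012 (triangles) lie at or below the line, 10 of them near 0, and nearly all others lie above it.

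The members also differed from all genes in length and level. Their median coding length, worked out from the steps of RPKM, was 594 bp, against 996 bp for all genes that passed the filter, and 645 bp without the 2 runs of near-identical values. Neighbours within runs had lengths within 10% of each other in 26.5% of pairs, against 10.0% of all neighbouring pairs, and in 19.2% without those 2 runs. Median mean RPKM was 33.2 among members and 15.1 among all. Levels also lay closer between neighbours, with a median of 2.05-fold between them within runs and 3.08-fold over all neighbours. They were at least 4-fold apart in 21.2% of pairs within runs and in 41.3% of all. Without those 2 runs the values were 2.22-fold and 23.3%. Pairs at an r of 0.9 or more outside runs lay closer still, at 1.72-fold and 12.8%. Values of 0 in at least 1 library were found in 90 members (54.5%) and in 11.6% of all genes. Members were also more restricted to few libraries. Tau, which is 0 for a gene that is equal in all libraries and 1 for a gene found in only 1, had a median of 0.64 among members and 0.32 among all. Mean RPKM, the level between neighbours, tau and the zeros come from the values that the rule used and are tied to it, and only the lengths are not.

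The rule was also applied with each library left out, and the neighbours were then compared in the library that had not chosen them. For each gene the deviation in that library from its mean over the other 9 was taken. Over the pairs of the newly chosen runs, the deviations of both neighbours had an r between 0.75, in egg, and 0.95, in L1. Over all neighbouring pairs it was between 0.25 and 0.31. The run pairs include those of the runs from RR48_00983 and RR48_01012, given above as possible shared reads and kept whole whichever library was left out. Both deviations had the same sign in 85.5% to 97.7% of run pairs, and in 57.2% to 70.3% of all pairs. Pairs of a run share genes, the libraries share stages and individuals of the same species, and members vary more than other genes, so these values are given without a test. As for the runs themselves, 31 to 40 were found with 9 libraries, and 13 of the 33 runs were kept whole whichever library was left out. Without their own highest library, 14 of the 33 were kept whole. The run from RR48_09635 was kept whole in 4 of the 10 cases, and those from RR48_08583, RR48_13401 and RR48_13670 in 9 of 10, each lost or broken without its own library.

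**Figure D5:**
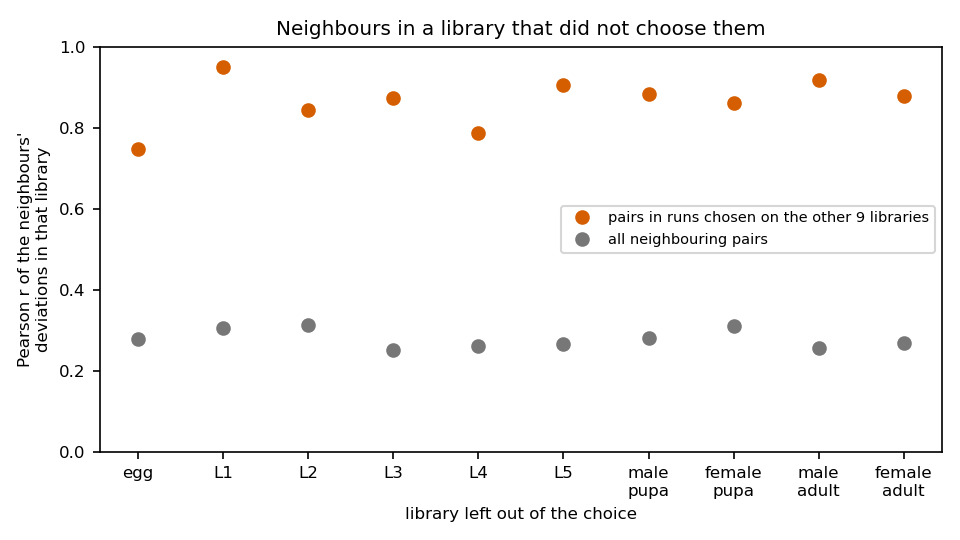
Pearson r, over pairs of neighbours, of both genes' deviations in a library (vertical) for each library left out of the choice of runs (horizontal). Pairs of runs chosen on the other 9 libraries lie between 0.75 and 0.95, and all neighbouring pairs between 0.25 and 0.31.

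Larvae and the other stages were compared across all genes with limma on log2(RPKM + 1), a split of the libraries into groups of 5 and 5 by the stage in the labels. The 5 larval libraries and the 5 others are different stages and not replicates, so the p-values measure the effect against differences between stages. Of the 165 members, 8 were higher in larvae at an adjusted p below 0.05, against 1.15% of all genes, and 2 were lower, against 0.322% of all genes. At an unadjusted p below 0.05 it was 42 of 165 members and 2547 of 13984 genes, in either direction. The median difference of the members, larvae minus others, was -0.29 on the log2 scale, and that of all genes was -0.25. Leaving out the egg gave 32 members higher and 5 lower, and the counts over all genes were larger there too, with 646 higher and 276 lower of 13967, against 161 and 45 with the egg. Leaving out L2 gave 6 members higher and 0 lower, and leaving out any one of the other 8 libraries gave 2 higher and 0 lower. The rule used the same libraries, and nothing is read from these shares.

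The 8 genes lay in pairs in 4 of the runs highest in L1. RR48_04161 had 131, 70.5, 24.7, 73.4 and 149 RPKM in L1 to L5, against 5.89 in egg, 0.342 in male pupa, 0.139 in female pupa and 0 in both adults. Its groups did not overlap, and the difference was 5.59 with an SE of 0.64 (limma, adjusted p = 0.0035). RR48_09639, whose values are given above, also had groups that did not overlap, with a difference of 9.54 and an SE of 1.14 (limma, adjusted p = 0.0039). The other 6 genes were RR48_02015, RR48_02016, RR48_04162, RR48_05552, RR48_05553 and RR48_09637, with differences between 6.63 and 9.39 and adjusted p between 0.032 and 0.049. In RR48_02016 the egg, at 330.2 RPKM, lay just below the lowest larval library, at 368 RPKM in L2, and in the other 5 it lay above the lowest one. The 2 genes lower in larvae, RR48_04041 and RR48_04042, belong to the run from RR48_04039 to RR48_04042. Its members are given above as possible shared reads or a split transcript, so these may not be 2 separate calls. RR48_04041 had 7.52, 7.57, 8.51, 8.53 and 3.62 RPKM in L1 to L5, against 15.4 in egg, 18.9 in male pupa, 24.2 in female pupa, 38.4 in male adult and 41.3 in female adult. All larval values of that gene lay below all others, and the difference was -1.76 with an SE of 0.36 (limma, adjusted p = 0.045).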

How the data were processed

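The authors sequenced RNA of 10 P. machaon libraries and deposited gene expression as RPKM for 15285 locus tags. The submitters' processing notes name TopHat 1.0.12 and 1.4.1, while the counting tool and its treatment of reads with several matches are not given in the sources used here. Each column was matched to its library by name, with 0 columns left over. Reads and coding lengths were recovered from the steps in which RPKM moves, taking lengths as multiples of 3 bp, and reads came out whole for all 15285 genes. They describe depth and counting error, and intervals from them would cover counting error only. For genes with few reads the length can be a fraction of the true one.

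Genes averaging 1 RPKM or more were searched for runs with Python 3.11.15, numpy 2.4.6, pandas 2.3.3 and scipy 1.17.1. Larvae were compared with the other stages by limma 3.58.1 (eBayes with trend) in R 4.3.3 on log2(RPKM + 1), which understates changes of genes with low values, with Benjamini-Hochberg adjustment over all 13984 genes and a threshold of 0.05. Males and females were compared by fold change without a test. The scripts were checked on simulated data. The members, the lists and the tests were chosen with earlier results of these data known.

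If 25 runs or fewer had been found, all would be named. Otherwise named were the 10 runs with most members, the strongest run of each library, the 3 runs most shifted to either sex, the 3 with the steadiest and the 3 with the least steady ratio between neighbours, and the 3 with the widest and the 3 with the narrowest spread of levels, and within them the members of highest and lowest mean. Other runs and members are named after their values were seen, where a count or an end of a range falls on them. Alternatives were other thresholds, run lengths, filters, pseudocounts, scalings and correlations, and leaving out each library.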

Additional observations from a re-analysis of the deposited data

Results flagged for a closer look

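For each run, the mean of log2(RPKM + 1) over the members was compared among the 5 larval libraries and among the 5 others, and the gap of the most extreme library to the next one was divided by the range of the group. This share was above the critical value of 0.71 in 18 of 66 groups (27.3%). For independent values it would be about 1 in 20. That rate does not apply here, because the runs were chosen by values in these same libraries. The libraries are different stages, so a gap can be the stage itself. L1, L3 and L4 stood out in 0 groups.

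By this measure L2 stood out among the instars in 6 runs. It was the highest in those from RR48_01304 (0.918), RR48_04866 (0.946), RR48_10281 (0.884), RR48_13401 (0.91) and RR48_13670 (0.919), and the lowest in that from RR48_08904 (0.868). L5 stood out as the lowest instar in the runs from RR48_04039 (0.771) and RR48_14620 (0.722).

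Egg stood out by this measure, above both pupae and both adults, in 6 runs, those from RR48_02012 (0.902), RR48_02148 (0.968), RR48_04161 (0.852), RR48_05552 (0.794), RR48_08904 (0.907) and RR48_15013 (0.899). Male adult stood out in those from RR48_04611 (0.783), RR48_07051 (0.896) and RR48_08583 (0.828), and male pupa in that from RR48_14222 (0.939).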

How the results depend on the processing

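The main rule gave 33 runs with 165 members. An r of at least 0.85 gave 56 runs with 265 members, and 0.95 gave 14 with 67. Runs of 3 or more genes numbered 140 with 486 members, and runs of 5 or more 17 with 101. Spearman's correlation in place of Pearson's gave 10 runs with 51 members, all of them among the 165. The other 6 settings that change the choice (pseudocount 0.1, no filter, mean RPKM of at least 5, scaling by the 75th percentile, tags below the filter that do not end a run, and pairs of constant ratio that do) gave 23 to 37 runs with 120 to 183 members, and leaving out 1 library 31 to 40 runs with 153 to 186 members. With a pseudocount of 0.1, 5 members were called higher in larvae and 0 lower, and without a filter 7 and 1. Leaving out 1 library gave 2 to 32 higher and 0 to 5 lower. With that pseudocount, 39 members and 709 of all genes were at least 4-fold higher in males. The 0 members in the female direction held in all 3 settings tried. No paired analysis was possible because every library is replicate 1 of its stage and sex, so that no replicate numbers pair libraries across groups, and males and females were compared within each stage without a test.

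Each stage has 1 library, so no value has a replicate error. Values below 0.113 to 0.167 RPKM on a gene of 1 kb stand for fewer than 3 reads, and differences between such values were not detectable at this depth.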
